A study of Rattus norvegicus with 8 samples.

Results

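The interleukin-6 family comprises the cytokines Il6, Il11, Lif (leukemia inhibitory factor), Clcf1 (cardiotrophin-like cytokine factor 1), Osm (oncostatin M), Ctf1 (cardiotrophin 1) and Cntf (ciliary neurotrophic factor), together with the signalling receptor chains Il6st, which encodes gp130, Lifr and Osmr. These 10 genes were chosen by name from genes whose platform annotation gives 1 symbol, and all 10 were measured, each by 1 array feature, among 14506 genes. The family was selected on earlier values of the same arrays, in which Clcf1, Il11 and Lif stood high after 24 h of FGF9. The differences between FGF9 and control cultures given for these 10 genes are therefore a description, with no test read from them.

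RNA came from myelinating cultures of embryonic Sprague-Dawley rat spinal cord, which hold neurons, glia and other cells together, so a level is that of the mixture. Cultures received human fibroblast growth factor 9 (FGF9) at 100 ng/ml or were left untreated as controls, and were collected after 24 h or 10 days. The 4 groups were FGF9 at 24 h, control at 24 h, FGF9 at 10 days and control at 10 days, with 2 arrays each. The labels name no transgene or deletion in any group, and their source field calls the same samples astrocytes grown from neurospheres. No label says that replicates were separate cultures, so an SE or p here covers the spread between arrays, which may be technical. All values are log2 signals, and a difference of 1 is a doubling.

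Cytokines of this family bind a receptor complex that contains gp130, usually with a second chain such as Lifr or Osmr. Bound receptors activate Janus kinases (JAK), which phosphorylate the transcription factor Stat3, and Stat3 induces Socs3, an inhibitor of the same receptors. In the nervous system Lif and Cntf support neurons and oligodendrocytes, and gp130 with Stat3 drives the reactive state of astrocytes.

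Same-numbered FGF9 and control arrays of a time were treated as a pair, because their array names begin alike. Pair 1 at 24 h begins with CL1 and pair 2 with CL2, while at 10 days pair 1 begins with CL2 and pair 2 with AA1. What these beginnings stand for is not stated. The 2 AA1 arrays correlated at r = 0.968 with each other and at 0.897 to 0.939 with the 6 other arrays, which correlated among themselves at 0.962 to 0.989. Over the 8 arrays Mbp (myelin basic protein) lay between 10.78 and 12.67 and Gfap (the astrocyte filament protein) between 11.24 and 13.24. Snap25 (a synaptic protein of neurons) lay between 11.76 and 13.78. The myelin list differed between the 24 h pairs. Its mean was 10.62 (FGF9) and 11.18 (control) on the CL1 arrays, against 8.46 and 9.16 on the CL2 arrays of that time. Not every gene of that list was bright, with Klk6 as low as 5.77 and Opalin as low as 5.80. Fibroblast markers set the AA1 pair apart. The mean of the 6 fibroblast and pericyte markers was 6.83 (FGF9) and 6.62 (control) on the AA1 arrays, against 8.46 to 9.33 on the others. The collagen gene Col1a1 stood at 7.27 and 7.38 on the AA1 arrays, against 10.96 to 11.84. Rgs5 and Pdgfrb of this list overlapped with the other arrays. Rgs5 stood at 7.66 and 5.64, against 6.02 to 8.20, and Pdgfrb at 7.33 and 8.35, against 8.11 to 8.76. Etv4, an ETS transcription factor induced by FGF signalling, was higher in FGF9 cultures by 0.29 and 0.57 in the 24 h pairs. In the 10-day pairs it was higher by 2.34 and 2.66. Dusp6, a phosphatase that acts on ERK, was higher by 1.01 and 1.65 at 24 h and by 1.51 and 3.69 at 10 days. Both genes were named with earlier results of these data known, so they are no independent check of the treatment.

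**Figure D1:**
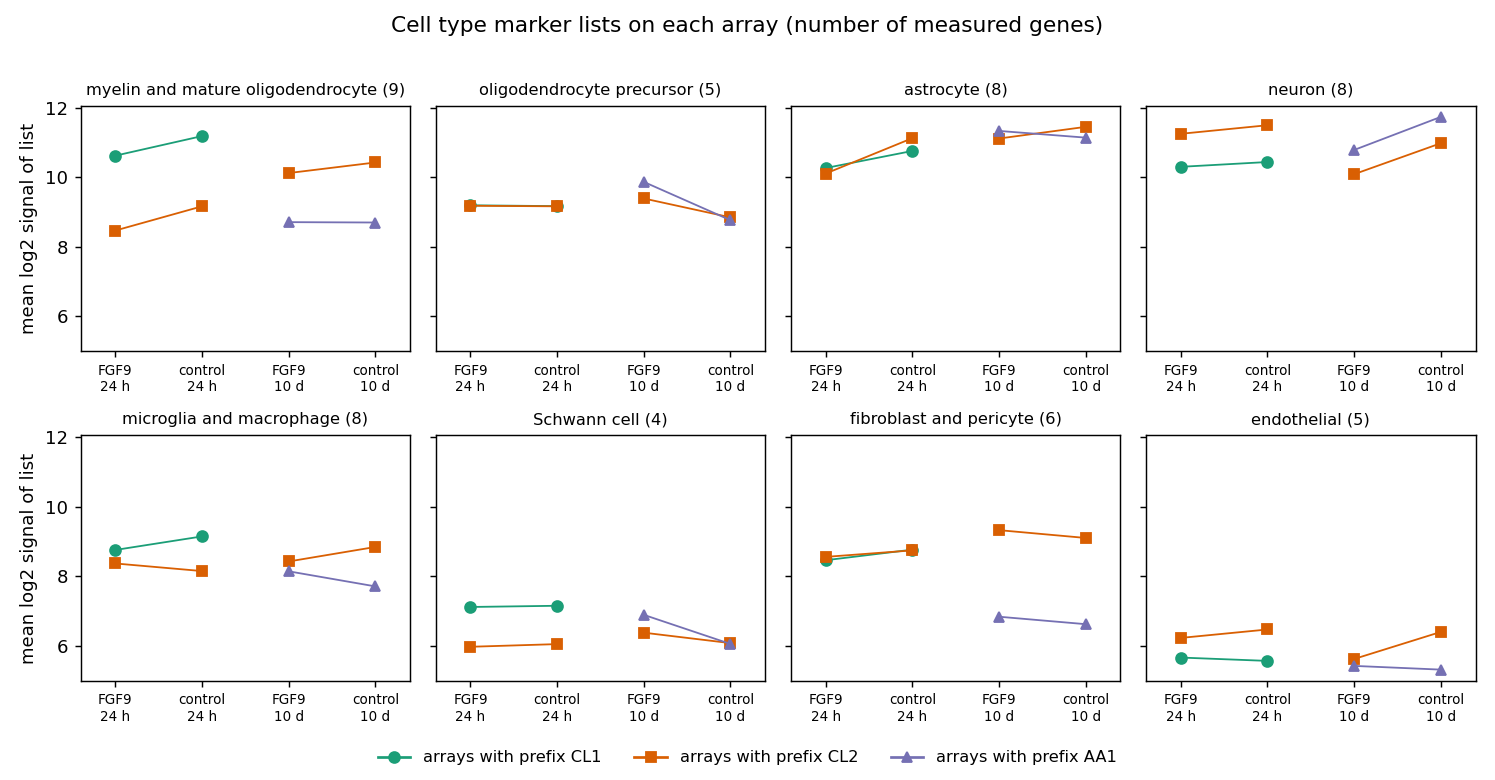
Mean log2 signal (y axis) of each cell type marker list on each of the 8 arrays, by group (x axis); lines join the FGF9 and control array of a pair, colour and symbol give the array name prefix, and the number of measured genes is in brackets. Fibroblast and pericyte markers were lowest on the 2 AA1 arrays (6.83 and 6.62), and all 8 measured neuron markers were lower in FGF9 cultures at both times.

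The family members lie at several places in the rat genome. In the RefSeq annotation of GRCr8, 0 protein-coding genes lie between Lif and Osm and 0 between Lifr and Osmr, so 4 of the members form 2 neighbouring pairs. Promoter windows were available for 7 of 10 members (Clcf1, Lif and Osm had no entry), and the 250 bases before the RefSeq start were searched on both strands for an AP-1 site (TGANTCA), a CRE site (TGACGTCA), an ETS site (CCGGAA) and a STAT site (TTCNNNGAA), none of which overlapped in these windows. An AP-1 match was found in 3 of the 7, in Il11, Cntf and Osmr, while 6.34% of 33469 RefSeq promoters of that length hold one. A CRE match was found in 1 of the 7, 162 bases before the start of Il6, while 1.59% of all promoters hold one. ETS and STAT matches were found in 0 of the 7, against 12.6% and 7.67% of all promoters, which says only that these letters are not in these windows. In Il11, Cntf and Osmr the FGF9 and control arrays stood apart at both times, with Cntf opposite in direction to the other 2. Clcf1 and Lif also stood apart at both times but had no window to search. A link between match and response was not tested. The 3 promoters with an AP-1 match are shown. Each is written 5′ to 3′ on the strand of the gene, from RefSeq on GRCr8, with the AP-1 match in capitals. The windows are chr1:78098372-78098621 (plus strand) for Il11, chr1:219314536-219314785 (minus strand) for Cntf and chr2:57688562-57688811 (minus strand) for Osmr. The match begins 142 bases before the start of Il11, 72 before that of Cntf and 33 before that of Osmr. A match describes letters and not a bound site.
Il11: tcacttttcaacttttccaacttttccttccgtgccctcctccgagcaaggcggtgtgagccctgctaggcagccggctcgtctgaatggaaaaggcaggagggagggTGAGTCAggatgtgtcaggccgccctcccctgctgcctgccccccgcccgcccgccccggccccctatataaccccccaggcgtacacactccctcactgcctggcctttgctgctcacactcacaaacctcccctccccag
Cntf: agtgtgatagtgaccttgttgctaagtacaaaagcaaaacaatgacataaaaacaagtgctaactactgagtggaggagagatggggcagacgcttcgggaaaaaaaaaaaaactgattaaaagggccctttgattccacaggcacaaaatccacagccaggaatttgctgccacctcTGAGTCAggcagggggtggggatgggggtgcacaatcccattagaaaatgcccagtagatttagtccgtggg
Osmr: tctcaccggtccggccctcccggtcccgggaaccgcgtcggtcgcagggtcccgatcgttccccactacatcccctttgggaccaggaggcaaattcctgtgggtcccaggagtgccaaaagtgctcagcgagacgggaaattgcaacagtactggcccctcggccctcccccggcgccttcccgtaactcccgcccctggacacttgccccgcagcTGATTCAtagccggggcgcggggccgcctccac

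The comparison at 24 h asks how the cultures first respond to FGF9. Il11, Clcf1 and Lif were higher in FGF9 cultures by 2.67, 2.43 and 1.16 log2 units, which is 6.36-fold, 5.38-fold and 2.23-fold. Control signals of Il11 and Clcf1 were dim, at percentiles down to 22.8 and 30.0 among all features, and a fold against a dim signal can understate the change. Cntf was lower by a mean difference of -1.06 and Lifr by -0.64. Osm was near its control level, and the shared receptor chain Il6st differed by 0.20. The 3 cytokines that led to the choice of the family thus stood above their control levels. Cntf stood below its controls, with unequal pair differences of -0.62 and -1.50.

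Among the ligands, Il11, a cytokine made by stromal cells and astrocytes, stood at 7.43 and 8.91 in FGF9 cultures at 24 h, against 5.46 and 5.55 in controls. Both FGF9 arrays were high and the control arrays lay within 0.1 of each other. The difference was 2.67 ± 0.60 (SE, n = 2 per group; ± 0.45 with the pairs as a block), made up of 1.97 in pair 1 and 3.37 in pair 2. Clcf1, a ligand of the Cntf receptor complex, stood at 7.91 and 8.51 in FGF9 cultures, against 5.97 and 5.59 in controls. Its groups were far apart as well, with pair differences of 1.93 and 2.92 and a mean of 2.43 ± 0.26. Lif, a ligand of the Lifr and gp130 complex, stood at 6.76 and 7.79 in FGF9 cultures, against 6.15 and 6.09 in controls. The groups did not overlap, but 1 FGF9 array carried most of the difference of 1.16 ± 0.36 (0.61 in pair 1, 1.70 in pair 2). For Lif, Il11 and Clcf1 alike, the larger difference was in the CL2 pair.

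Il6, the inflammatory cytokine that names the family, was dim on every array, at percentiles of 5.20 to 22.9 among all features. It stood at 5.25 and 5.41 in FGF9 cultures at 24 h, against 4.85 and 5.07 in controls. The difference of 0.37 ± 0.18 (0.40 and 0.34 in the pairs) was small, and the same limit of dim signals holds for it. Osm, made mainly by leukocytes and microglia, stood at 5.92 and 6.04 in FGF9 cultures, against 6.24 and 5.86 in controls. Its pairs went in opposite directions (-0.32 and 0.18), unlike those of its neighbour Lif. Microglia and macrophage markers had a median difference of -0.08 at 24 h, with 2 of 8 higher. Their list mean also went in opposite directions in the pairs. It was 8.76 in FGF9 cultures against 9.14 in controls in pair 1, and 8.37 against 8.15 in pair 2. The part of these markers in the Osm values was not tested.

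Ctf1 and Cntf, both ligands that signal through Lifr and gp130, were lower in FGF9 cultures at 24 h. Cntf stood at 8.30 and 7.31 in FGF9 cultures, against 8.92 and 8.82 in controls. Here the controls lay close together and the FGF9 arrays apart, with pair differences of -0.62 and -1.50 and a mean of -1.06 ± 0.55 (± 0.36 with the block). Ctf1 stood at 7.73 and 7.25 in FGF9 cultures, against 8.44 and 7.66 in controls. The Ctf1 groups overlapped, the controls differing from each other by more than either pair did, and the within-pair differences were -0.71 and -0.40. Cntf is made by astrocytes and Schwann cells. Astrocyte markers were also lower at 24 h, in 7 of 8 genes, with list means of 10.26 and 10.10 in FGF9 cultures and 10.75 and 11.12 in controls and a median difference of -0.75. Fewer cells of a type and less RNA per cell cannot be told apart in such mixtures, and the part of astrocyte markers in the Cntf difference was not tested.

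The receptor chains differed by less than 1 log2 unit at 24 h. Il6st, the gp130 chain used by every cytokine of the family, was bright on all arrays and stood at 11.88 and 11.91 in FGF9 cultures, against 11.75 and 11.65 in controls. Its difference of 0.20 ± 0.33 was the smallest of the 3 receptor chains. Lifr, the chain shared by Lif, Clcf1, Cntf and Ctf1, stood at 9.07 and 8.42 in FGF9 cultures, against 9.46 and 9.32 in controls. Both FGF9 arrays were below both controls, by -0.39 and -0.90 in the pairs. Osmr, the oncostatin M receptor chain, stood at 8.64 and 8.56 in FGF9 cultures, against 8.16 and 8.05 in controls, with nearly equal pair differences of 0.48 and 0.51.

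**Figure D2:**
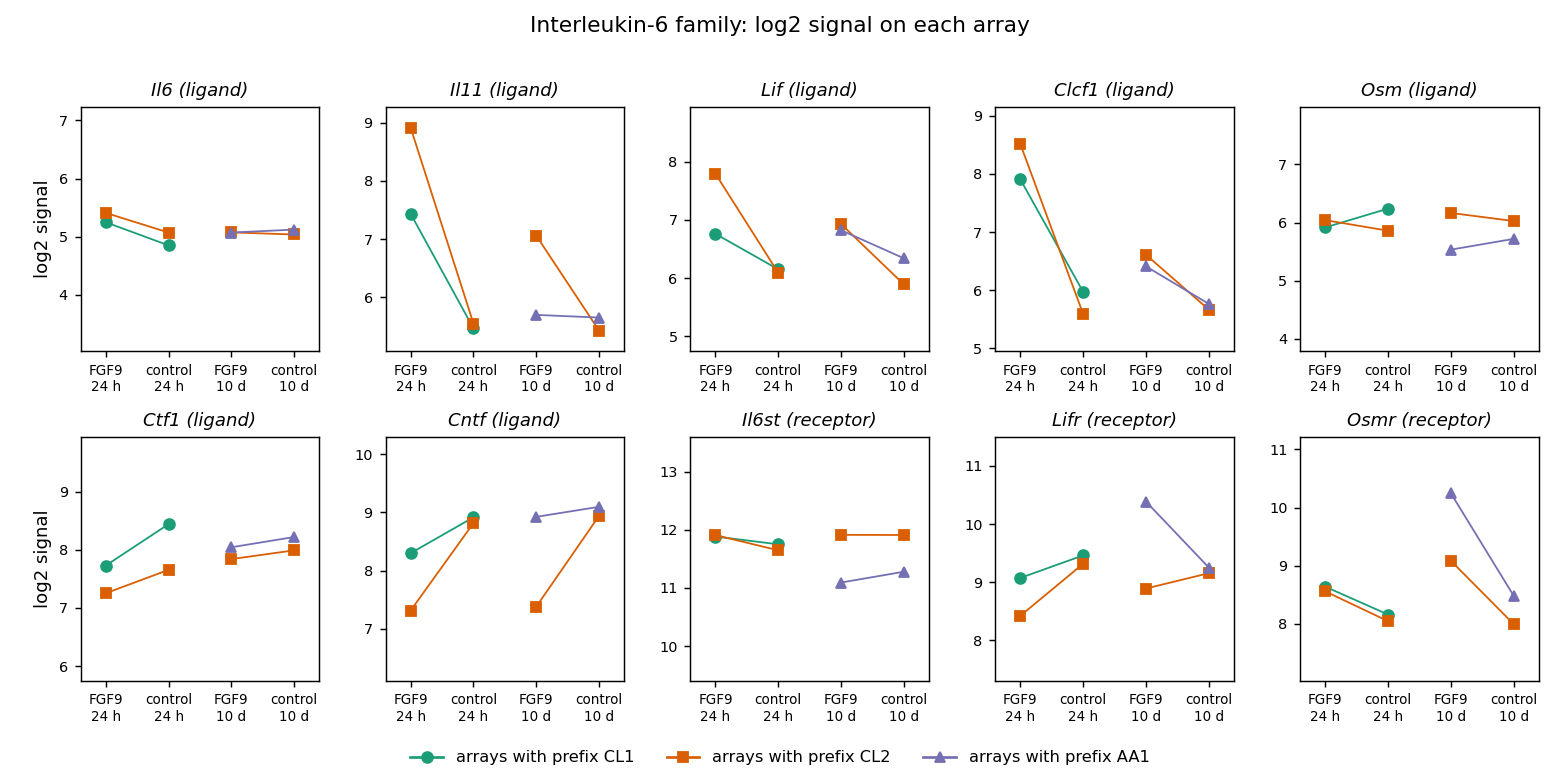
Log2 signal (y axis, 4.2 units in every panel) of the 10 genes on each array, by group (x axis); lines join the FGF9 and control array of a pair, and colour and symbol give the array name prefix. Il11 and Clcf1 showed the steepest lines at 24 h, while at 10 days the lines of Il11 and Cntf were steep in the CL2 pair alone and those of Osmr in both pairs.

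As a list at 24 h, 6 of 10 members were higher and 4 lower in FGF9 cultures, with a median of 0.28, beside a median of 0.00 over all genes (-0.00149, with 7214 of 14506 higher). The 7 ligands had a median of 0.37 and the 3 receptor chains one of 0.20. FGF9 and control arrays did not overlap for 6 members with FGF9 higher, where 17.5% of all genes did so, and for 2 with FGF9 lower, where 14.5% did. In limma with Benjamini-Hochberg adjustment over all genes, 0 of 10 members and 0% of all genes passed an adjusted p of 0.05, with and without the pairs as a block. At an unadjusted p under 0.05 there were 280 genes without the block and 1800 with it. Il11 and Clcf1 passed in the blocked fit when either 10-day pair was left out, where 1.63% of all genes (237) did. Since this contrast led to the choice of the family, nothing is read from these counts.

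The comparison at 10 days asks what lasts under continued FGF9. Osmr was higher by 1.43 log2 units (2.69-fold), and Clcf1, Il11 and Lif by 0.79, 0.84 and 0.76. Cntf was lower by a mean difference of -0.87. Il6, Osm and Il6st had mean differences within 0.1 of 0.

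Osmr stood at 9.08 and 10.25 in FGF9 cultures at 10 days, against 8.00 and 8.48 in controls. Both FGF9 arrays lay above both controls, by 1.09 and 1.76 in the pairs (1.43 ± 0.39; ± 0.19 with the block). Lifr, its neighbour in the genome, stood at 8.89 and 10.39 in FGF9 cultures, against 9.16 and 9.25 in controls. There the pairs disagreed, with -0.26 in the CL2 pair and 1.13 in the AA1 pair, so the mean of 0.44 ± 0.49 describes neither. Il6st stood at 11.91 and 11.09 in FGF9 cultures, against 11.91 and 11.28 in controls, which is a split by prefix and not by treatment.

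Among the ligands, Il11 also differed by pair. It stood at 7.06 and 5.69 in FGF9 cultures at 10 days, against 5.42 and 5.65 in controls. The difference was 1.63 in the CL2 pair and 0.05 in the AA1 pair, the pair with low fibroblast markers, and the part of fibroblast content in this was not tested. Clcf1 stood at 6.61 and 6.41 in FGF9 cultures, against 5.67 and 5.76 in controls. Its pairs agreed more closely (0.94 and 0.65, mean 0.79 ± 0.26). Lif stood at 6.93 and 6.82 in FGF9 cultures, against 5.89 and 6.34 in controls, with pair differences of 1.04 and 0.48. Neither Clcf1 nor Lif had overlapping groups.

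Cntf stood at 7.38 and 8.92 in FGF9 cultures at 10 days, against 8.94 and 9.10 in controls. The CL2 pair differed by -1.56 and the AA1 pair by -0.17, and the CL2 value was close to the -1.50 of the CL2 pair at 24 h. The astrocyte marker list averaged 11.11 in FGF9 cultures and 11.45 in controls in the CL2 pair, where Cntf was far lower. Gjb6 differed most there, at 6.78 against 8.34. Slc1a2 (12.05 against 11.76) and Slc1a3 (12.45 against 11.79) were higher with FGF9 in that pair, and the remaining markers were lower. In the AA1 pair the list averaged 11.33 in FGF9 cultures and 11.14 in controls. The part of astrocyte markers in the Cntf difference was not tested. Ctf1 stood at 7.84 and 8.04 in FGF9 cultures, against 7.99 and 8.22 in controls. Its groups overlapped, and both pairs were lower, by -0.15 and -0.18. For Il6 the values were 5.07 and 5.07 in FGF9 cultures, against 5.04 and 5.12 in controls. Osm stood at 6.17 and 5.53 in FGF9 cultures, against 6.03 and 5.72 in controls, and its groups overlapped.

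**Figure D3:**
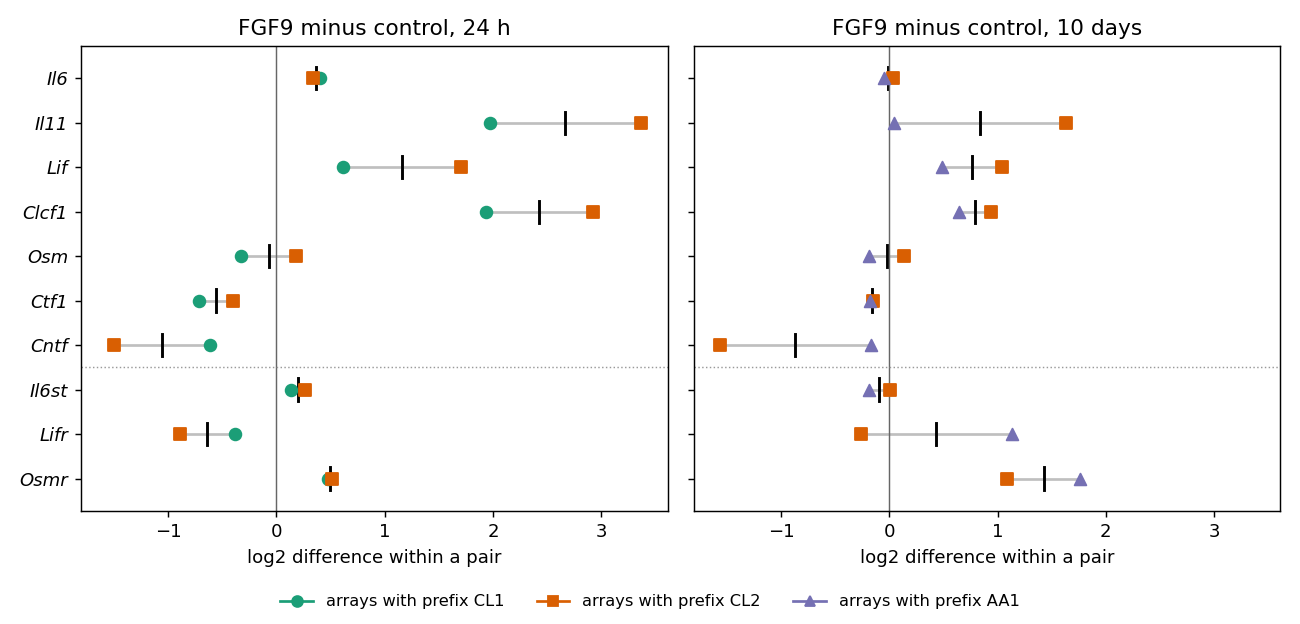
Log2 difference between the FGF9 and control array of each pair (x axis) for the 10 genes (y axis), at 24 h and at 10 days; symbols give the array name prefix, short black bars the mean of both pairs, and the dotted line separates ligands from receptor chains. Il11 was higher by 1.97 and 3.37 at 24 h, but by 1.63 and 0.05 at 10 days, while Osmr was higher by 0.48 and 0.51 at 24 h and by 1.09 and 1.76 at 10 days.

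At 10 days 5 of 10 members were higher and 5 lower, with a median of 0.21, beside 0.02 over all genes (7717 of 14506 higher). The ligands had a median of -0.01 and the receptor chains one of 0.44. Arrays did not overlap for 4 members with FGF9 higher (Il11, Lif, Clcf1 and Osmr), against 14.9% of all genes, and for 1 with FGF9 lower (Cntf), against 11.3%. In limma without the block 0 of 10 members and 0% of all genes passed (816 at an unadjusted p under 0.05). With the pairs as a block 1 of 10 members passed, which was Osmr, beside 6.43% of all genes (933). Leaving out either 24 h pair from the blocked fit kept Osmr as the 1 member past the threshold, beside 3.23% of all genes. Either choice gives the same 10-day result by construction. When a 10-day pair is left out, the contrast sets 1 FGF9 array against 1 control array and has no spread of its own. Effect sizes alone are given for it. For Osmr the difference was 1.09 without the AA1 pair and 1.76 without the CL2 pair at 10 days. For Lifr the values were -0.26 and 1.13. These counts, too, come from the contrast behind the choice of genes and carry no evidence.

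Set side by side, the 24 h and 10-day differences of Clcf1 were 2.43 and 0.79, those of Il11 2.67 and 0.84, and those of Lif 1.16 and 0.76. For Osmr they were 0.50 and 1.43. The difference between the effects, 10 days minus 24 h, was -1.63 ± 0.37 for Clcf1, -1.83 ± 0.84 for Il11, -0.40 ± 0.51 for Lif and 0.93 ± 0.56 for Osmr. Within FGF9 cultures, Il11 was lower at 10 days than at 24 h by a mean difference of -1.80 ± 0.60 and Clcf1 by -1.70 ± 0.26, while Osmr was higher by 1.07 ± 0.39. These means set CL1 and CL2 arrays at 24 h beside CL2 and AA1 arrays at 10 days. With the block the Osmr value was 0.70 ± 0.23, and between the CL2 FGF9 arrays alone it was 0.53, against -1.86 for Il11 and -1.90 for Clcf1.

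The change with time in untreated cultures is a contrast that the choice of genes did not use directly, and limma was run on it. Its control arrays do enter the FGF9 differences behind that choice, so it is not an independent test. In control cultures 0 of 10 members passed between 10 days and 24 h, beside 0% of all genes (limma, 415 genes at an unadjusted p under 0.05). With the array name prefix as a block, a fit in which FGF9 arrays also enter this contrast, 0 of 10 passed beside 0.00689% of all genes (1 gene, and 1990 at an unadjusted p under 0.05). The adjusted p of the members lay between 0.983 and 0.999 without the block. Control means were 5.54 at 10 days and 5.51 at 24 h for Il11 and 5.71 and 5.78 for Clcf1. The differences were 0.03 ± 0.60 for Il11, -0.06 ± 0.26 for Clcf1, 0.15 ± 0.55 for Cntf and 0.14 ± 0.39 for Osmr. Over the 10 members they ran between -0.19 (Lifr) and 0.15 (Cntf). With the block they ran between -0.39 (Lifr) and 0.28 (Il6st). Between the CL2 control arrays themselves, 1 array at each time, they ran between -0.20 (Lif) and 0.34 (Ctf1). Such small differences with SEs of 0.18 to 0.60 do not show that the levels were equal.

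The other genes of the pathway were taken from 4 lists, of which 43 of 49 genes were measured. These lists were also chosen with earlier results of these data known. Their calls and counts are therefore a description and carry no independent evidence. At 10 days 7 of these 43 rose and 0 fell with the block, beside 6.43% of all genes in either direction, and 0 passed without it. At 24 h 0 passed in either fit. Without the AA1 pair 5 of 43 rose and 1 fell at 10 days with the block (Ptpn6, a phosphatase, fell), beside 3.92% of all genes. Without the CL2 pair at 10 days 11 rose and 0 fell, beside 10.4%, and without either 24 h pair 5 rose, beside 3.23%. Jak2, Socs3, Serpina3n, Timp1 and Lcn2 were among those that rose in each of these fits, which have 1 residual degree of freedom. At 24 h 1 of 43 passed without either 10-day pair, beside 1.63% of all genes. Neuron markers fell at 10 days, 7 of 8 with the block. Their list means were 10.09 and 10.78 in FGF9 cultures and 10.98 and 11.73 in controls. The part of neuron markers in these counts was not tested. The median difference of the 43 genes was 0.30 at 10 days, beside 0.02 over all genes, and 0.04 at 24 h, beside -0.00149.

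Among the other ligands and receptor parts, 6 of 10 were measured and 0 passed at either time. Cntfr, the receptor that binds Cntf and Clcf1, stood at 9.16 and 8.47 in FGF9 cultures at 24 h, against 9.26 and 9.08 in controls, and at 8.79 and 11.00 in FGF9 cultures at 10 days, against 8.94 and 10.72 in controls. Both AA1 arrays were high, whatever the treatment. Il11ra1, which binds Il11, differed by -0.36 ± 0.34 at 24 h and by 0.30 ± 0.34 at 10 days. Il6r, which binds Il6, differed by 0.28 ± 0.41 and by -0.19 ± 0.41. Il27ra, a chain of the interleukin-27 receptor, differed by 0.41 ± 0.19 at 10 days and did not pass.

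Of the signal transducers 9 of 11 were measured. Jak2, a kinase bound to gp130, rose at 10 days with the block. It stood at 10.96 and 10.40 in FGF9 cultures, against 9.98 and 9.51 in controls (0.94 ± 0.27; adjusted p = 0.0237 with the block, 0.672 without). At 24 h its difference was -0.09. Stat3 stood at 11.61 and 12.10 in FGF9 cultures at 10 days, against 11.41 and 11.42 in controls, and did not pass (0.44 ± 0.21; adjusted p = 0.173 with the block). Stat5a (0.94 ± 0.41) and Sos1, an activator of Ras (-0.62 ± 0.39), did not pass either (adjusted p = 0.103 and 0.0546 with the block).

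The 9 negative regulators were all measured, and 1 rose. Socs3, the inhibitor induced by Stat3, stood at 8.26 and 8.28 in FGF9 cultures at 10 days, against 6.73 and 6.11 in controls. All FGF9 arrays at 10 days lay more than 1 unit above the controls, by 1.53 and 2.17 in the pairs (1.85 ± 0.24; adjusted p = 0.0173 with the block, 0.17 without). At 24 h Socs3 stood at 7.76 and 7.77 in FGF9 cultures, against 7.25 and 7.16 in controls, and did not pass (0.56 ± 0.24). Socs2 (0.61 ± 0.35 at 10 days) and Socs5 (0.59 ± 0.23 at 24 h) did not pass.

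Genes known as targets of gp130 and Stat3 were all measured, and 5 of 19 rose at 10 days with the block, while 0 fell, beside 6.43% of all genes in either direction. In the blocked fit without either 24 h pair 3 of 19 rose, and Junb and Cebpd did not pass. As this list was chosen with earlier results of these data known, its counts are a description. Gfap is in this list and in the astrocyte marker list. The list's median was 0.45 at 10 days and 0.09 at 24 h. Serpina3n, an acute phase protease inhibitor, stood at 9.57 and 9.54 in FGF9 cultures at 10 days, against 5.52 and 5.16 in controls. At 24 h it stood at 5.80 and 5.80 in FGF9 cultures, against 5.99 and 6.93 in controls, so it was not high early. Lcn2, lipocalin 2, differed by 3.44 ± 0.29 at 10 days and by -0.17 ± 0.29 at 24 h. Timp1, a metalloprotease inhibitor, differed by 2.24 ± 0.41 and by 1.04 ± 0.41. The transcription factors Junb (0.72 ± 0.28; adjusted p = 0.0421 with the block) and Cebpd (0.73 ± 0.23; adjusted p = 0.0449 with the block) completed the 5. Without the block their adjusted p ran from 0.066 (Serpina3n, Lcn2) to 0.854 (Junb).

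**Figure D4:**
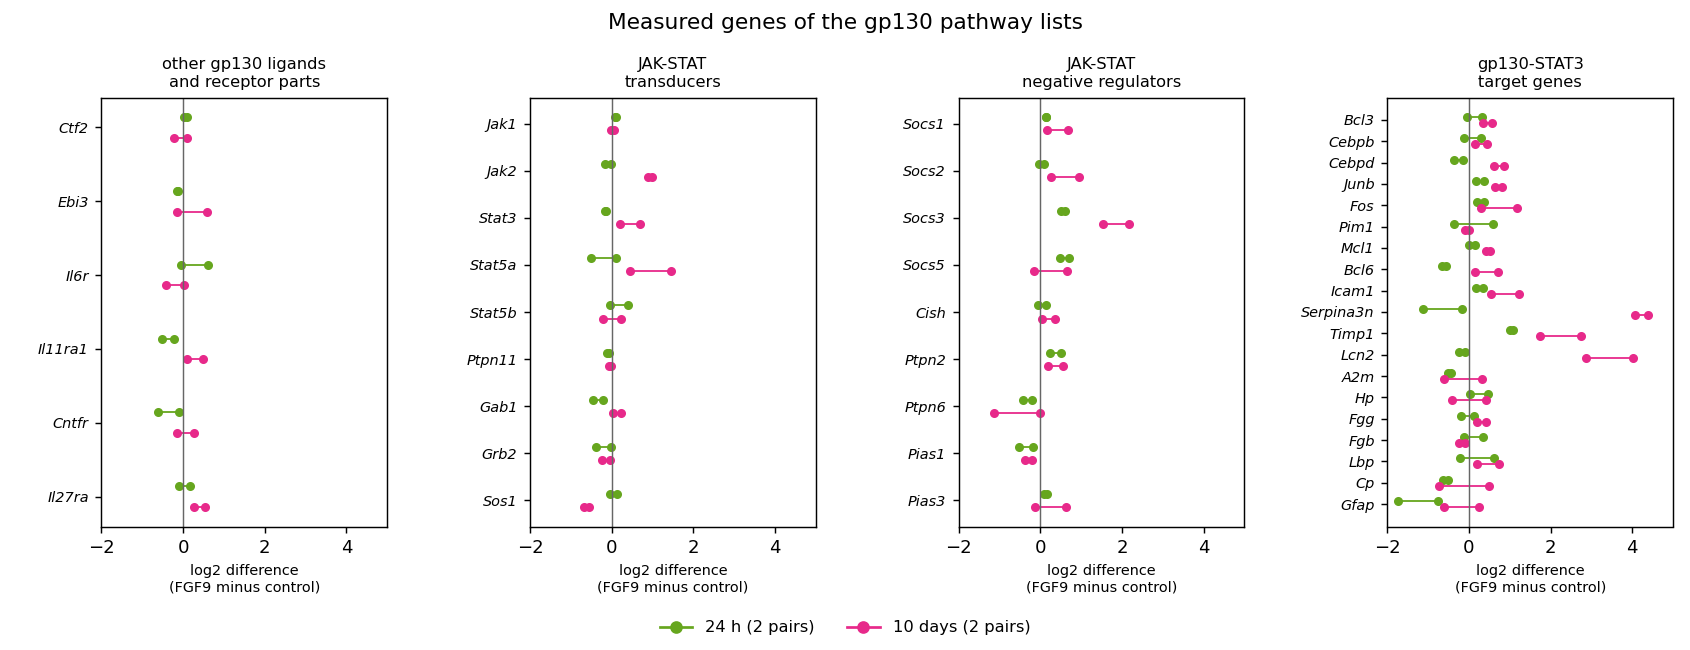
Log2 difference between FGF9 and control arrays (x axis) for the 43 measured genes (y axis) of the 4 pathway lists; each line joins the 2 pairs at 24 h (green) or at 10 days (magenta). Socs3, Serpina3n, Lcn2 and Timp1 lay to the right at 10 days, and of these Socs3 and Timp1 were also higher in both pairs at 24 h.

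Genes with the most similar profile were found by Pearson correlation over the 8 arrays, which share prefixes and treatment, and are given as a description. Closest to Clcf1 were Cd93 (r = 0.977), Fam110c (0.965) and Adamts7 (0.951). Cd93, a transmembrane receptor of endothelial and myeloid cells, stood at 8.25 and 9.62 in FGF9 cultures at 24 h, against 6.25 and 5.62 in controls. It was also close to Il11 (0.964), after Trmt6 (0.968) and before Sqor (0.953). For Lif the closest were Rpia (0.965), Sqor (0.950) and Zdhhc11 (0.948). Osmr was closest to Bcar1 (0.996), Nrarp (0.992) and Eif3d (0.982). Nrarp, a regulator of Notch signalling, stood at 7.87 and 9.53 in FGF9 cultures at 10 days, against 6.40 and 6.95 in controls.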

How the data were processed

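Total RNA was hybridised to 8 Affymetrix Rat Gene 1.0 ST arrays. The deposited table holds log2 signals, a scale read from its values (3.61 to 14.6). The submitters' processing notes name Partek 6.5 and GCRMA, an algorithm for background-correcting and summarizing probe signals; the sources used here do not give more. Values were used as deposited. Of 29214 features, 15310 had 1 symbol, 323 several and 13581 none; the highest-mean feature per symbol left 14506 genes. With arrays, their number (2 per group) limits the precision.

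Groups came from sample titles. R 4.3.3 with limma 3.58.1 fitted 1 mean per group over 8 arrays (4 residual degrees of freedom), Benjamini-Hochberg adjusted over all genes at 0.05. Quoted SEs are from this fit unless the block is named. A second fit added the shared beginning of the array names (prefix) as a block (2 residual degrees of freedom), which leaves the FGF9 differences as they are and changes their error. Same-numbered arrays deviated together (r = 0.757 at 24 h, 0.819 at 10 days), so the numbers were taken as pairs.

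Members, gene lists and the naming rule were chosen with earlier results of these data known. The rule named all 10 members, up to 6 genes per pathway list that passed with or without the block (filled to 3 by smallest p with the block), Il6r, Il11ra1, Cntfr, Stat3, Socs3, Etv4 and Dusp6, and the 3 genes most correlated with Clcf1, Il11, Lif and Osmr. Mbp, Klk6, Opalin, Gfap, Snap25, Col1a1, Rgs5, Pdgfrb, Gjb6, Slc1a2, Slc1a3, Ptpn6 and Bcl6 were named from the lists after their values were seen. Some genes of the lists are not reported here. The fits with and without the block were run on simulated data with independent noise and known FGF9 differences at 10 days. The other contrasts and the fits with pairs left out were not checked in this way. The alternatives tried were the block, each array left out in turn, quantile normalization, subtracted array medians, a filter on dim features and averaged features; leaving out pairs was added after seeing the data.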

Additional observations from a re-analysis of the deposited data

Results flagged for a closer look

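Serpina3n was singled out because its FGF9 effect at 10 days differed from that at 24 h by 4.88 log2 units (SE 0.34 with the pairs as a block). Both pairs were higher at 10 days and both lower at 24 h. The limma adjusted p was 0.034 with the block, where 0.0483% of all genes (7) passed, and 0.503 without it. Because the lists were chosen with earlier results of these data known, these p values are a description. For the following genes both pairs also moved up at 10 days and down at 24 h, while limma's test of the difference with the block did not pass. The difference, 10 days minus 24 h, was 3.61 for Lcn2 (adjusted p = 0.0965), 1.03 for Jak2 (adjusted p = 0.234), 0.99 for Cebpd (adjusted p = 0.237), 0.66 for Il11ra1 (adjusted p = 0.326) and 0.59 for Stat3 (adjusted p = 0.368). Bcl6 of the target list, which the naming rule left out, had the same signs. Its pairs differed by -0.56 and -0.66 at 24 h and by 0.16 and 0.70 at 10 days.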

How the results depend on the processing

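Of the FGF9 differences of the 10 members, 130 combinations of member, time and alternative could change a value (normalizations, and arrays left out at their own time). Of these 107 stayed within the spread between replicates and 23 moved further. Among members with the same sign in both pairs 0 reversed. Members whose pairs disagreed were not counted as reversed, though their sign could turn. Lifr at 10 days went from 0.44 to -0.31 without FGF9 replicate 2 at 10 days, and to -0.26 without the AA1 pair. A further 140 combinations could not change a difference by construction (the block, averaged features, the dim filter, arrays of the other time). The family median at 24 h was 0.28 and ranged from 0.24 to 0.33 when 1 array was left out; at 10 days it was 0.21 and ranged from 0.07 to 0.31, and it was 0.09 without the AA1 pair. With genes above the median feature alone the median turned to -0.56 at 24 h and to -0.09 at 10 days, because 5 of 10 members, among them Il11, Clcf1 and Lif, fail that filter. Counts of genes past the threshold were 0 in all 5 contrasts without the block and stayed 0 under each alternative without it. With the replicate block they were 0 at 24 h, 933 at 10 days, 7 for the difference of the effects, 1 for the control time contrast and 1589 for the FGF9 time contrast; the block changed no member's call other than those of Osmr at 10 days and Clcf1 in the FGF9 time contrast. With the block and 1 pair left out, the 24 h count was 237 without either 10-day pair, and the 10-day count was 469 without either 24 h pair, 1506 without pair 1 at 10 days and 569 without pair 2 at 10 days. With 2 arrays per group, small changes of dim genes such as Il6 and Osm are beyond what these arrays can resolve.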
